A study of Mus musculus with 6 samples.

Results

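A set of 7 genes of cytotoxic effector function was followed in single cells of mouse kidneys, namely *Gzma*, *Gzmb*, *Gzmk*, *Prf1*, *Fasl*, *Nkg7*, and *Ifng*. They were taken by symbol, with earlier results of these data known. All 7 were listed among the 31053 genes of the transplanted kidneys and the 28692 genes of the naive kidneys. The series holds 6 kidneys with 1 library each. The 2 rejecting and 2 tolerized kidneys were BALB/c kidneys aged 6 to 7 weeks that were transplanted into wild-type, bilaterally nephrectomized male B6 recipients and taken on day 15, and the 2 naive kidneys were untransplanted B6 kidneys aged 10 to 12 weeks. Rejecting recipients were otherwise untreated, and tolerized recipients also received BALB/c splenocytes treated with ethylenecarbodiimide (ECDI) into a vein before and after transplantation. The comparison of rejecting and tolerized kidneys addresses how the cytotoxic genes of graft lymphocytes differ after tolerance induction.

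Cytotoxic lymphocytes kill by releasing granules onto a target cell. Perforin, encoded by *Prf1*, forms pores, and granzymes are serine proteases that enter through them; granzyme B (*Gzmb*) cleaves caspases and their substrates and triggers apoptosis, whereas granzymes A (*Gzma*) and K (*Gzmk*) are tryptases with other substrates. Fas ligand (*Fasl*) kills through the death receptor Fas without granules, *Nkg7* encodes a granule membrane protein that takes part in degranulation, and *Ifng* encodes interferon gamma, the cytokine that activates macrophages and raises MHC expression on graft cells. CD8 T cells and NK cells are the main users of this program, and both infiltrate rejecting kidney allografts.

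The genes lie on 5 chromosomes in GRCm38 (GENCODE M21). *Fasl* lies at chr1:161780689-161788495 on the minus strand, *Nkg7* at chr7:43437073-43438249 on the plus strand, and *Prf1* at chr10:61297833-61304680 on the plus strand. *Ifng* lies at chr10:118441046-118445892 on the plus strand and is overlapped on that strand by Gm49751. *Gzma* and *Gzmk* are neighbors on the minus strand at chr13:113093825-113100981 and chr13:113171608-113225908, and *Gzmk* is overlapped by *Esm1* on the other strand. *Gzmb* lies at chr14:56258838-56262260 on the minus strand.

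The promoters of 4 members are shown as examples. *Gzma* and *Gzmb* lay apart between the graft groups in CD8 T-like cells in opposite directions. *Prf1* shared the leading part of its order of classes with *Gzma*, and *Ifng* had another order. These 4 members were chosen after their values were seen. Each runs from 250 bases before to 50 bases after the RefSeq start (GRCm38.p6), 5′ to 3′ on the strand of the gene. Capitals mark matches, on either strand, to the motif letters of factors of T and NK cells, namely RUNX (TGTGGT), T-box (GGTGTGA), AP-1 (TGANTCA), NFAT (GGAAAA), STAT (TTCNNNGAA), and CRE (TGACGTCA). *Gzma* is shown at chr13:113100932-113101231 (minus), *Gzmb* at chr14:56262285-56262584 (minus), *Prf1* at chr10:61297586-61297885 (plus), and *Ifng* at chr10:118440796-118441095 (plus).
Gzma: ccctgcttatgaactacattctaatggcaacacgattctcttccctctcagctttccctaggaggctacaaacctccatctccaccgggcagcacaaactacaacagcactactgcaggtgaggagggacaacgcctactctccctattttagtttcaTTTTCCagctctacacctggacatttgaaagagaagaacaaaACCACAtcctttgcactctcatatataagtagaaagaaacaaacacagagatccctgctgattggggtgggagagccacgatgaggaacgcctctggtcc
Gzmb: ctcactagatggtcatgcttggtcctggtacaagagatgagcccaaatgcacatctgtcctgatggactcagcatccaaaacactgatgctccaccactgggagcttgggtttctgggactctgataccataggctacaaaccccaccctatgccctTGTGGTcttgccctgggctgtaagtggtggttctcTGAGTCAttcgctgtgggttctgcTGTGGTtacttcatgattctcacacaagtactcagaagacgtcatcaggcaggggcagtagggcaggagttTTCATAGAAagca
Prf1: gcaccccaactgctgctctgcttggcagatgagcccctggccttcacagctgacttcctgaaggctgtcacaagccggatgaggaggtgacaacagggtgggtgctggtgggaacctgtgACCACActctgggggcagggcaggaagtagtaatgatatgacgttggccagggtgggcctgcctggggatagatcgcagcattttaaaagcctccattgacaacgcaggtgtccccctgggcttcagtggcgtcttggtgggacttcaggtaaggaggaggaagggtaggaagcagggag
Ifng: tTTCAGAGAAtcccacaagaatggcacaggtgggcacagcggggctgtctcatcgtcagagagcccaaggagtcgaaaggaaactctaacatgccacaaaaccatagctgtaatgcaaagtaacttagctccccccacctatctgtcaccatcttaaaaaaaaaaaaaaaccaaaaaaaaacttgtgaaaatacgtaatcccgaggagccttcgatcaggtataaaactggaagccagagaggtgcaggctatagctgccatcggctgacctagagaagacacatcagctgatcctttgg

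The *Gzma* window held a RUNX match at position -50 and an NFAT match at -92 from the start. The *Gzmb* window held RUNX matches at -93 and -34 with an AP-1 match at -58 between them, and a STAT match at 37. *Prf1* held 1 RUNX match at -130, and *Ifng* 1 STAT match at -249. Of the members not shown, *Gzmk* held a T-box match at -75, *Fasl* an NFAT match at -227, and *Nkg7* matches to RUNX at -83, T-box at -13, and STAT at -220. RUNX letters thus occurred in 4 of the 7 windows, against 16.8% of 32851 promoters of the same length. T-box letters occurred in 2 windows (3.98% of all promoters), AP-1 in 1 (7.81%), NFAT in 2 (23.4%), STAT in 3 (8.30%), and CRE in none (1.79%). No match overlapped that of another motif, and a match describes letters, not binding.

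Lymphocytes were classified by marker genes alone, within clusters made without the members. CD8 T-like cells had a UMI of *Cd8a* or *Cd8b1* and of the CD3 complex and none of *Cd4* or *Foxp3*, CD4 T-like cells had *Cd4* and the CD3 complex without CD8 or *Foxp3*, regulatory T-like cells had *Foxp3* and the CD3 complex without CD8, and NK-like cells had a receptor gene such as *Ncr1* without *Cd3d*, *Cd3e*, *Cd3g*, CD8, *Cd4*, or *Foxp3*. CD8 T-like cells numbered 2160 and 1772 in the rejecting and 1051 and 428 in the tolerized kidneys. CD4 T-like cells numbered 246 and 212 against 153 and 128, regulatory T-like cells 122 and 130 against 237 and 113, and NK-like cells 84 and 108 against 118 and 125. The naive kidneys held 15 and 12 CD8 T-like, 8 and 13 NK-like, 1 and 1 CD4 T-like, and no regulatory T-like cells, of 41 and 54 T and NK cells in all. Markers that set the classes were at 0 where the gate excludes them. Outside the gate, *Cd40lg*, a helper T cell gene, was at 36.1 to 164 CPM in CD4 T-like and 1.14 to 5.74 CPM in CD8 T-like cells. CPM are UMIs of the gene per 1000000 UMIs of the class in a kidney. *Il2ra* was at 100 to 320 CPM in regulatory T-like and 34.1 to 47.4 CPM in CD4 T-like cells. However, the regulatory T cell genes *Il2ra*, *Ctla4*, and *Ikzf2* summed to 600 and 1525 CPM in CD4 T-like cells of the rejecting kidneys. A sub-cluster of these cells held 457 regulatory T-like and 87 CD4 T-like cells. Whether CD4 T-like cells included regulatory T cells without a *Foxp3* UMI was not tested.

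The libraries differed in depth and purity. T and NK cells had a median of 1314 and 2687 UMIs in the rejecting and 4533 and 4742 UMIs in the tolerized kidneys. In rejecting kidney 1, 56.3% of CD8 T-like cells fell in a cluster of low UMI counts that held 2.57% to 3.51% in the other transplanted kidneys. Macrophage markers (*C1qa*, *C1qb*, *C1qc*, *Adgre1*, *Csf1r*, *Mrc1*, and *Cd68*) summed to 516 and 110 CPM in CD8 T-like cells of the rejecting and 64.5 and 31.9 CPM in those of the tolerized kidneys, with all 7 detected except *Mrc1* at 0 in tolerized kidney 2. Tubule markers in CD8 T-like cells had another order and were highest in tolerized kidney 2. Endothelial markers were not, at 33.3 and 12.5 CPM in the rejecting against 18.5 and 17.95 CPM in the tolerized kidneys. Proximal tubule markers (*Lrp2*, *Slc34a1*, *Slc5a2*, *Kap*, *Miox*, *Cubn*, and *Slc27a2*) summed to 902 and 221 CPM in the rejecting kidneys. In the tolerized kidneys they summed to 750 and 1269 CPM. Loop of Henle markers summed to 152 and 56.4 against 118 and 256 CPM. The part of these markers in the results was not tested. At most 35 barcodes were shared by 2 transplanted kidneys. The study sequenced its kidneys in more than 1 experiment. Because the labels do not tie a kidney to an experiment, that could not enter the fits. The edgeR p values rest on the spread between these kidneys, drawn toward a spread shared over genes.

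The members divided the 4 classes in different orders, as the plot of levels by class and kidney shows. *Gzma* was at 12210 and 9883 raw CPM in NK-like cells of the rejecting kidneys and at 9756 and 9033 CPM in those of the tolerized kidneys. It was at 173 to 545 CPM in CD8 T-like cells, 2.56 to 96.3 CPM in CD4 T-like cells, and 3.79 to 14.2 CPM in regulatory T-like cells. Every kidney's NK-like value was thus above every CD8 T-like value, and every CD8 T-like value above both other classes, which overlapped. *Prf1* had the same leading order, with a mean of 1094 ± 229 CPM (SD, n = 4 kidneys) in NK-like cells, 159 ± 22.3 CPM in CD8 T-like cells, 13.5 ± 6.39 CPM in regulatory T-like cells, and 6.80 ± 5.86 CPM in CD4 T-like cells, the last pair overlapping.

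*Gzmb* and *Nkg7* were shared by NK-like and CD8 T-like cells. *Gzmb* was at 844 to 1034 raw CPM in NK-like and 391 to 1199 CPM in CD8 T-like cells, with overlap. It was at 117 to 677 CPM in regulatory T-like cells, which overlapped CD8 T-like cells and lay above the 30.4 to 93.3 CPM of CD4 T-like cells. *Nkg7* was at 2750 to 3039 CPM in NK-like and 2548 to 2896 CPM in CD8 T-like cells, overlapping, and both lay above the 529 to 1098 CPM of CD4 T-like cells and the 339 to 640 CPM of regulatory T-like cells. *Fasl* separated all 4 classes, at 219 to 337 CPM in NK-like, 112 to 169 CPM in CD8 T-like, 23.1 to 79.7 CPM in CD4 T-like, and 3.79 to 18.5 CPM in regulatory T-like cells.

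*Gzmk* and *Ifng* did not lead in NK-like cells. *Gzmk* was at 36.6 to 82.1 raw CPM in CD8 T-like, 19.2 to 56.0 CPM in CD4 T-like, 3.80 to 22.5 CPM in NK-like, and 0 to 10.6 CPM in regulatory T-like cells, and each class overlapped the next. *Ifng* was at 337 to 472 CPM in CD4 T-like cells, 230 to 435 CPM in CD8 T-like cells, and 125 to 382 CPM in NK-like cells, with overlap between each pair of neighbors. Regulatory T-like cells, at 30.8 to 64.4 CPM, lay below all of them.

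**Figure D1:**
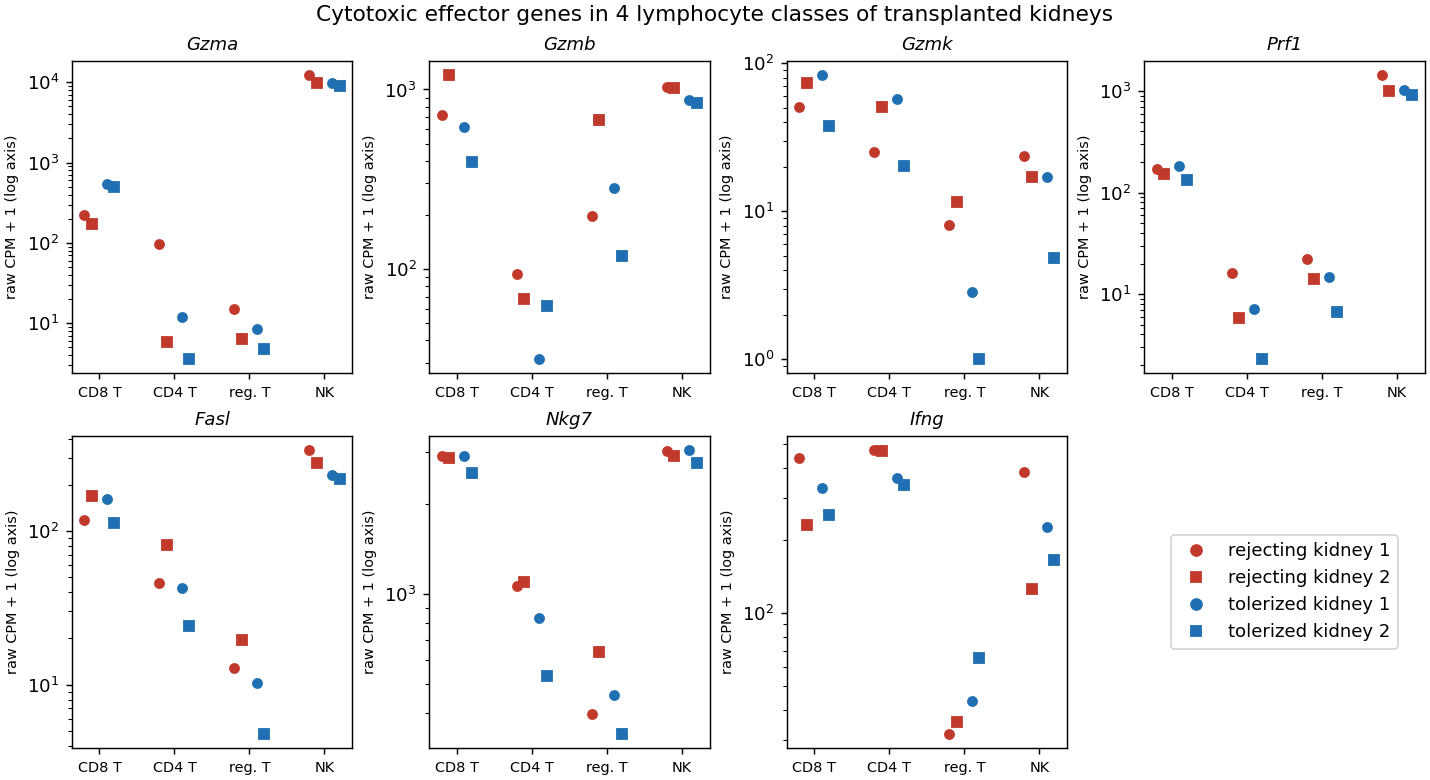
Raw CPM plus 1 on a log axis of each member in CD8 T-like, CD4 T-like, regulatory T-like (reg. T), and NK-like cells, with 1 point per kidney (red, rejecting; blue, tolerized; circle, kidney 1; square, kidney 2). *Gzma*, *Prf1*, and *Fasl* are highest in NK-like cells of every kidney, *Gzmb* is higher in regulatory than in CD4 T-like cells of every kidney, and *Ifng* is lowest in regulatory T-like cells.

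Classes were compared within kidneys by edgeR's quasi-likelihood test on the 16 sums of 4 classes in 4 transplanted kidneys, with the kidney as a block and Benjamini-Hochberg adjustment over 7091 genes. The classes of a kidney share its library. CD8 T-like exceeded CD4 T-like cells past an FDR of 0.05 in 6 of 7 members, against 9.84% of all genes tested. The log2 differences were 4.79 for *Prf1*, 4.22 for *Gzma*, 3.58 for *Gzmb*, 1.82 for *Nkg7*, 1.75 for *Fasl*, and 0.83 for *Gzmk*. *Ifng* did not pass, with a log2 difference of -0.31 (SE 0.129, edgeR FDR 0.0851), and passed with a negative sign in 7 of the 16 settings run.

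NK-like cells exceeded CD8 T-like cells in 3 members, against 10.4% of all genes, and lay below them in 2, so that 5 of 7 differed against 23% of all genes in either direction. *Gzma* was higher by a log2 of 4.93 (SE 0.197), *Prf1* by 2.70 (SE 0.113), and *Fasl* by 0.83 (SE 0.133). *Gzmk* fell by 2.29 and *Ifng* fell by 0.61 on the log2 scale from CD8 T-like to NK-like cells, the latter with an edgeR FDR of 0.00533. *Nkg7* had a log2 difference of 0.00 (SE 0.118), and *Gzmb* one of 0.40 (SE 0.183, edgeR FDR 0.127), which passed in 5 of the 16 settings.

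Regulatory T-like cells exceeded CD4 T-like cells in *Gzmb* alone among the members, by a log2 of 2.15 (SE 0.252, edgeR FDR 1.1e-07), against 5.06% of all genes higher. *Gzmk* fell by 3.60, *Ifng* fell by 3.41, *Fasl* fell by 2.17, and *Nkg7* fell by 0.98 on the log2 scale, so that 5 of 7 members differed against 10.3% of all genes. *Prf1* (log2 1.08, edgeR FDR 0.123) and *Gzma* (log2 -1.31, edgeR FDR 0.232) did not pass, and both rested on few UMIs, at most 15 of either gene in any kidney's regulatory T-like cells.

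In naive kidneys NK-like cells held 66.2% and 68.9% of the 201 and 530 UMIs of all members together. They held 95.9% and 86.5% of the *Gzma* and 66.7% and 74.4% of the *Gzmb* UMIs. Their part was smaller for *Nkg7* (48.2% and 50%) and *Fasl* (33.3% and 42.9%). *Fasl*, *Gzmk*, *Prf1*, and *Ifng* each had at most 8 UMIs in a naive kidney. *Gzma* was at 4550 and 8611 raw CPM (70 and 224 UMIs) in these NK-like cells, below the 9033 CPM of the lowest transplanted kidney. *Nkg7* was at 3510 and 4075 CPM, above the 3039 CPM of the highest. *Prf1* had 0 of 15385 UMIs of NK-like cells in naive kidney 1, which allows up to 195 CPM, and 1 of 26014 in naive kidney 2, whereas it was at 922 to 1431 CPM in NK-like cells of the 4 transplanted kidneys. In naive CD8 T-like cells *Gzma* had 0 and 28 UMIs, the latter in 2 cells. Strain, age, transplantation, and the gene list of the files all differ between naive and transplanted kidneys and cannot be told apart, and no test was made on 8 and 13 cells.

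Within CD8 T-like cells, the edgeR quasi-likelihood test of tolerized against rejecting kidneys called no member at an FDR under 0.05, nor any of the 10773 genes tested (0%). At an unadjusted p under 0.05 there were 783 genes, among them 2 members, *Gzma* and *Gzmb*, and DESeq2 called 37 genes, among them *Gzma*. Values are CPM after TMM normalization, the scaling of library sizes by edgeR. *Gzma* was at 202 and 168 CPM in the rejecting and at 575 and 531 CPM in the tolerized kidneys. Both tolerized kidneys lay above both rejecting kidneys, as in 19.3% of all genes. The log2 fold change was 1.58 (SE 0.246), with an unadjusted p of 7.83e-05 and a Benjamini-Hochberg adjusted p of 0.263 by edgeR. DESeq2 gave an adjusted p of 3.19e-06. In the 4 edgeR fits that left out 1 kidney, the log2 ran from 1.46 to 1.71. These fits took the lone kidney of a group to vary like the others. They also leaned more on a spread shared over genes. The weight of that shared spread, edgeR's prior degrees of freedom, was 7.96 with all 4 kidneys. It was 43.6 without rejecting kidney 1, 22.2 without rejecting kidney 2, and infinite without either tolerized kidney. *Gzma* passed an FDR of 0.05 in only 5 of the 18 settings run, namely DESeq2 and those 4 fits. The highest adjusted p over the settings was 0.363, by edgeR.

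*Gzmb*, the apoptosis-inducing granzyme, was at 666 and 1168 CPM in CD8 T-like cells of the rejecting and at 649 and 416 CPM in those of the tolerized kidneys. Both tolerized kidneys lay below both rejecting kidneys, as in 19.6% of all genes, but tolerized kidney 1 and rejecting kidney 1 lay close together. The log2 fold change was -0.78 (SE 0.334), with an unadjusted p of 0.0414 and a Benjamini-Hochberg adjusted p of 0.685 by edgeR. It was -1.14 without rejecting kidney 1 and -0.31 without rejecting kidney 2, in edgeR fits.

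The other members overlapped between the groups in CD8 T-like cells. *Prf1* was at 158 and 148 CPM in rejecting and 192 and 140 CPM in tolerized kidneys. *Nkg7* was at 2670 and 2774 against 3057 and 2710 CPM, and *Fasl* at 108 and 164 against 170 and 119 CPM. *Gzmk* was at 46.3 and 70.7 against 86.7 and 38.9 CPM, and *Ifng* at 402 and 224 against 345 and 270 CPM. For *Ifng* both tolerized kidneys lay between the rejecting kidneys, and for the other 4 the tolerized kidneys lay on both sides of at least 1 rejecting kidney. Their log2 fold changes were between -0.03 (*Ifng*, SE 0.307) and 0.12 (*Gzmk*, SE 0.360), with adjusted p from 0.93 to 0.989 by edgeR, and each changed sign in at least 1 fit that left out 1 kidney.

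**Figure D2:**
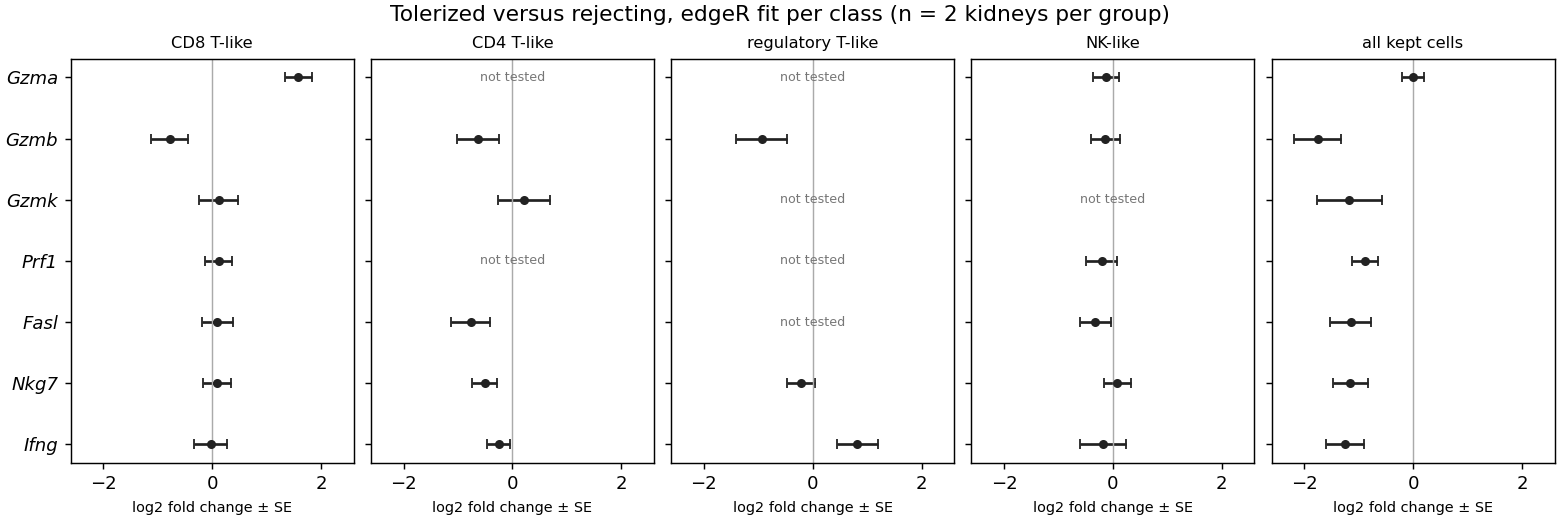
Log2 fold change of tolerized over rejecting kidneys (point) with its standard error (bar) for each member in the 4 classes and in all kept cells, from edgeR fits with 2 kidneys per group. In CD8 T-like cells *Gzma* is at 1.58 and *Gzmb* at -0.78 while the other 5 members lie close to 0, and in all kept cells 6 members lie below 0. Members marked as not tested had too few UMIs for the fit.

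The *Gzma* UMIs of CD8 T-like cells came from few cells. At least 5 *Gzma* UMIs were found in 39 of 2160 (1.81%; exact 95% binomial interval, counting error only, 1.29% to 2.46%) and 27 of 1772 (1.52%; 1.01% to 2.21%) cells of the rejecting kidneys. In the tolerized kidneys they were found in 43 of 1051 (4.09%; 2.98% to 5.47%) and 17 of 428 (3.97%; 2.33% to 6.28%) cells. These cells were not thinned, with medians of 1490 and 2913 against 4906 and 5580 UMIs. Shares with at least 5 UMIs were higher in both tolerized kidneys for *Fasl*, *Gzmk*, *Nkg7*, *Prf1*, and *Ifng* too, and overlapped for *Gzmb*. They were 52.5% and 80.6% against 90.4% and 83.2% for *Nkg7*. For *Ifng* they were 4.86% and 2.88% against 8.37% and 8.41%. The 10 cells richest in *Gzma* held 46.8% and 72.7% of its UMIs in the rejecting and 59.0% and 86.4% in the tolerized kidneys. The same 10 cells are a larger part of the class where it is smaller, as in the tolerized kidneys. For *Nkg7*, by contrast, the richest 10 cells held 2.77% to 9.57% of the UMIs. Without the 10 cells richest in *Gzma* of each kidney, the groups overlapped in *Gzma*. It was then at 117 and 47.4 raw CPM in the rejecting and at 226 and 69.8 CPM in the tolerized kidneys.

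Because cells of tolerized kidneys were deeper, shares were also taken after thinning each cell to 750 UMIs, leaving out 201 and 19 shallower CD8 T-like cells in the rejecting against 6 and 2 in the tolerized kidneys. The mean number of *Gzma* UMIs per thinned cell was 0.191 and 0.128 in the rejecting and 0.335 and 0.397 in the tolerized kidneys, again without overlap. How many of all genes lay apart after thinning was not counted. The share of thinned cells with any *Gzma* UMI was 5.26% and 2.40% in the rejecting and 3.73% and 4.23% in the tolerized kidneys, with overlap. The groups thus lay apart in *Gzma* UMIs per cell but not in the share of cells that showed any. In proximal tubule-like cells, which should lack the gene, that share was 1.06% in rejecting kidney 1, 0 of 1099 cells in rejecting kidney 2, which allows up to 0.273%, and 0.228% and 0.167% in the tolerized kidneys.

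*Gzmb* showed the opposite order and was spread over more cells than *Gzma*. The 10 CD8 T-like cells richest in *Gzmb* held 6.82% and 7.37% of its UMIs in the rejecting and 15.3% and 40.6% in the tolerized kidneys. Without those cells *Gzmb* was at 676 and 1124 raw CPM against 532 and 240 CPM, without overlap. After thinning, 31.7% and 37.0% of CD8 T-like cells had a *Gzmb* UMI in the rejecting and 22.4% and 16.4% in the tolerized kidneys, without overlap. Neither measure was taken over all genes, so how many would lie apart is not known. Exact intervals cover counting error only and do not measure a difference between groups. Those of the rejecting kidneys, 29.6% to 33.8% and 34.7% to 39.3%, lay apart from each other. Proximal tubule-like cells showed it in 1.44% and 0.182% in the rejecting kidneys and in 0 of 3503 and 0 of 2392 cells in the tolerized kidneys, which allows up to 0.0856% and 0.125%. Without thinning the CD8 T-like shares were 43.6% and 55.3% against 44.2% and 33.4%, in cells with medians of 1490 and 2913 against 4906 and 5580 UMIs, so that the groups overlapped. Shares of thinned CD8 T-like cells with *Prf1* (11.8% and 9.64% against 10.3% and 7.28%), *Nkg7* (81.1% and 84.8% against 84.6% and 79.1%), and *Ifng* (19.7% and 10.95% against 13.1% and 12.4%) overlapped between the groups.

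**Figure D3:**
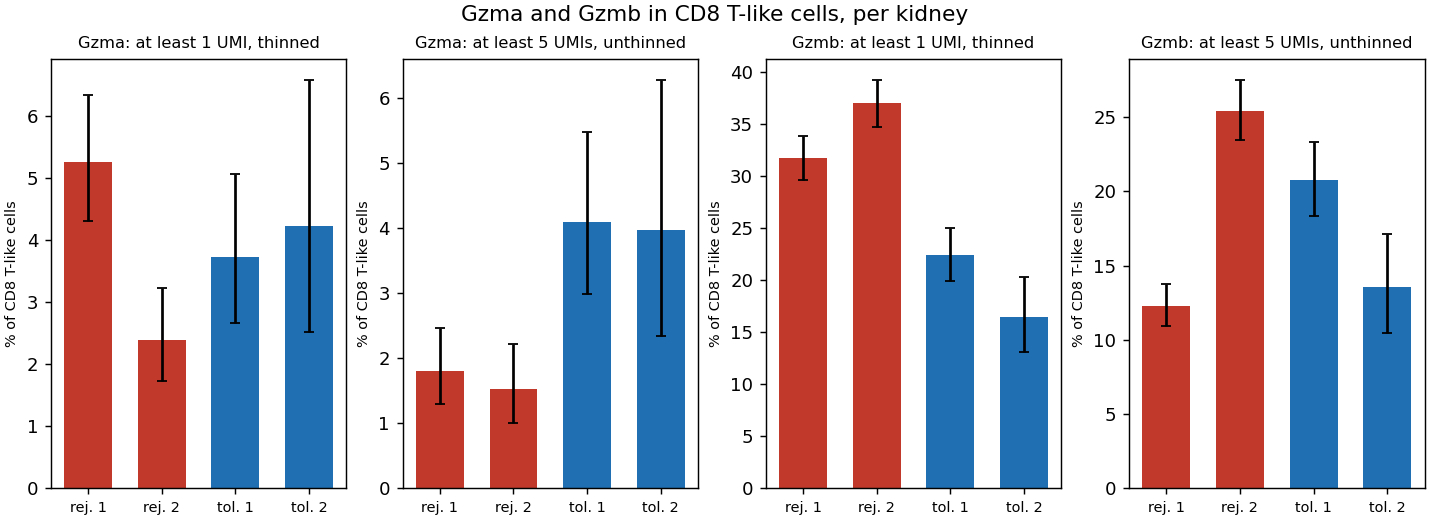
Percentage of CD8 T-like cells per kidney (red, rejecting; blue, tolerized) with at least 1 UMI after thinning to 750 UMIs, or with at least 5 UMIs without thinning, for *Gzma* and *Gzmb*. Bars show the share and whiskers the exact 95% binomial interval, which covers counting error only. *Gzma* shares separate the groups only at 5 or more UMIs, and *Gzmb* shares only after thinning. Cells without thinning were deeper in the tolerized kidneys.

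*Gzma* and *Gzmb* occurred together. In thinned CD8 T-like cells with *Gzmb*, *Gzma* was found in 6.60% and 4.32% of cells in the rejecting and in 11.5% and 20% in the tolerized kidneys. In cells without *Gzmb* it was found in 4.63% and 1.27% against 1.48% and 1.12%. Among the cells chosen for at least 5 *Gzma* UMIs, unthinned, *Gzmb* was found in 74.4% and 88.9% in the rejecting and 93.0% and 100% in the tolerized kidneys, against 30.7% to 54.8% of the other CD8 T-like cells. *Gzmk* was found in 12.8% and 55.6% of these cells in the rejecting and 48.8% and 29.4% in the tolerized kidneys, against 7.97% to 22.4% of the others. The chosen cells were deeper, with medians of 1992 and 3266 against 1478 and 2905 UMIs in the rejecting and 6195 and 6614 against 4868 and 5517 UMIs in the tolerized kidneys.

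Some T and NK cell genes, but not all, set the chosen cells of rejecting kidney 1 apart from those of the other kidneys. *Cd3e*, a CD3 subunit, was found in 88.9% of them in rejecting kidney 2 and in 97.7% and 94.1% in the tolerized kidneys, but in 46.2% in rejecting kidney 1. The other CD8 T-like cells of rejecting kidney 1 showed *Cd3e* in 61.9%. There *Cd8a* was found in 64.1% of the chosen and 83.9% of the other cells, and *Cd8b1* in 82.1% and 81.2%. *Ncr1*, an NK cell receptor, was found in 38.5% of the chosen cells in rejecting kidney 1 and in 4.65% to 7.41% in the others. *Klrb1c* and *Klra8* were each found in 23.1% in rejecting kidney 1 and in at most 11.8% in the others. *Klre1* did not set that kidney apart, at 23.1% and 22.2% in the rejecting and 41.9% and 23.5% in the tolerized kidneys. Nor did *Eomes*, at 15.4% and 11.1% against 16.3% and 11.8%. The cluster of NK cells held 14 and 4 CD8 T-like cells in the rejecting against 4 and 2 in the tolerized kidneys, with 394 of 1148 and 216 of 1032 *Gzma* UMIs in the rejecting and 120 of 3126 and 58 of 1390 in the tolerized kidneys. Without the T-like cells of that cluster, the log2 fold change of *Gzma* in CD8 T-like cells was 2.00 (edgeR adjusted p 0.12). Over all CD8 T-like cells, *Ncr1*, *Klrb1c*, *Klra8*, *Klre1*, and *Eomes* were all detected and summed to 54.1 and 68.6 raw CPM in the rejecting and 141 and 116 CPM in the tolerized kidneys, and their part in the *Gzma* result was not tested; *Ncr1* alone was at 7.24 and 1.67 against 2.09 and 2.87 CPM.

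The groups lay apart in *Gzma* in some clusters of CD8 T-like cells, in different directions. In the cluster led by *Pdcd1*, an inhibitory receptor of stimulated T cells, *Gzma* was at 59.3 and 183 raw CPM in the rejecting and at 569 and 485 CPM in the tolerized kidneys. In the cluster led by *Cxcr6*, a chemokine receptor of tissue T cells, it was at 113 and 128 CPM against 815 and 883 CPM. In both clusters, the tolerized kidneys lay above the rejecting kidneys, on few cells. Cells with at least 5 *Gzma* UMIs numbered 2 and 15 against 20 and 4 in the *Pdcd1* cluster. In the *Cxcr6* cluster they numbered 5 and 6 against 18 and 8. The low-UMI cluster had 389 and 2 *Gzma* UMIs in the rejecting and 0 and 31 in the tolerized kidneys. The cycling cluster had 107 and 27 against 26 and 166 UMIs. The *Cxcr6* cluster held 12.5% and 21.6% of CD8 T-like cells in the rejecting and 33.5% and 38.6% in the tolerized kidneys, and the *Pdcd1* cluster 17.8% and 57.5% against 49.7% and 27.6%. In the cluster with *Il7r* and *Tcf7*, genes of long-lived T cells, it was at 89.2 and 27.2 CPM against 2.75 and 13.9 CPM, with both tolerized kidneys below both rejecting kidneys but on 62 and 25 against 2 and 9 UMIs. The difference between clusters was not tested, and how many of all genes lay apart within a cluster was not counted.

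*Gzmb* overlapped between the groups in the clusters led by *Pdcd1* (750 and 1469 against 787 and 410 raw CPM) and *Cxcr6* (439 and 1563 against 589 and 647 CPM). It was highest in rejecting kidney 2 in both. In the *Il7r* cluster *Gzmb* was at 104 and 157 CPM in the rejecting and at 26.1 and 46.2 CPM in the tolerized kidneys, without overlap and again with no count over all genes. The low-UMI cluster had 1373 and 1388 CPM in the rejecting kidneys and 276 CPM in tolerized kidney 1, and without it the log2 fold change of *Gzmb* over CD8 T-like cells was -0.63 (edgeR adjusted p 0.752) and that of *Gzma* 1.62 (0.135).

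In CD4 T-like cells 5 members could be tested, and none passed an FDR of 0.05 with edgeR or DESeq2 or an unadjusted p under 0.05 with edgeR. Of all 6773 genes, 0.0148% passed the edgeR FDR, 613 had an unadjusted p under 0.05, and DESeq2 called 24. *Fasl* was at 45.3 and 74.7 CPM after TMM in the rejecting and at 43.7 and 26.0 CPM in the tolerized kidneys (log2 -0.77, SE 0.362, edgeR adjusted p 0.56). *Nkg7* was at 1068 and 1029 against 875 and 598 CPM (log2 -0.51, SE 0.234, edgeR adjusted p 0.551). *Ifng* was at 474 and 436 against 382 and 381 CPM (log2 -0.26, SE 0.212, edgeR adjusted p 0.728). These 3 members lay below both rejecting kidneys in both tolerized kidneys, where 20.7% of all genes did, and no member lay above both, where 20.6% did. *Gzmb* (93.6 and 62.7 against 32.2 and 69.4 CPM) and *Gzmk* (24.2 and 46.3 against 59.2 and 21.7 CPM) overlapped. In rejecting kidney 1, 33.7% of CD4 T-like cells lay in the low-UMI cluster, against 0.654% to 6.13% in the others. Without that cluster the log2 was -0.72 for *Fasl*, -0.51 for *Nkg7*, -0.23 for *Ifng*, -0.69 for *Gzmb*, and 0.18 for *Gzmk*, and none passed the edgeR FDR. With classes taken from sub-clusters, the log2 of *Ifng* was 0.05 and that of *Gzmk* turned from 0.22 to -0.12.

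In regulatory T-like cells *Gzmb*, *Nkg7*, and *Ifng* could be tested, and none passed an FDR of 0.05 with edgeR or DESeq2 or an unadjusted p under 0.05 with edgeR. Of all 5693 genes, 0% passed the edgeR FDR, 369 had an unadjusted p under 0.05, and DESeq2 called 13. *Gzmb* was at 202 and 647 CPM after TMM in the rejecting and at 295 and 137 CPM in the tolerized kidneys (log2 -0.93, SE 0.465, edgeR adjusted p 0.814). Rejecting kidney 2 was the highest and the groups overlapped. Without rejecting kidney 2 the log2 fold change of *Gzmb* was 0.15, without rejecting kidney 1 it was -1.53, and without tolerized kidney 1 it was -1.61. *Ifng* was at 31.6 and 32.8 against 44.5 and 75.1 CPM, above both rejecting kidneys in both tolerized kidneys as in 18.5% of all genes, with a log2 of 0.82 (SE 0.381, edgeR adjusted p 0.773) on 13 to 46 UMIs per kidney. *Nkg7* was at 406 and 611 against 479 and 396 CPM, with overlap. With classes taken from sub-clusters, the log2 of *Ifng* turned to -0.65 and that of *Nkg7* from -0.21 to 0.16.

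In NK-like cells 6 members could be tested, and none passed an FDR of 0.05 with edgeR or DESeq2 or an unadjusted p under 0.05 with edgeR. Of all 4482 genes, 0.0669% passed the edgeR FDR, namely *Aif1*, *C1qa*, and *C1qb*, genes of macrophages. *Gzma* was at 12690 and 10130 CPM after TMM in the rejecting and at 10350 and 10630 CPM in the tolerized kidneys (log2 -0.12, SE 0.240, edgeR adjusted p 0.952), with overlap. After thinning, the share of NK-like cells with a *Gzma* UMI was 88.9% and 92.4% in the rejecting and 79.5% and 76.8% in the tolerized kidneys. The shares did not overlap but some of their exact intervals did, and such shares were not taken over all genes. The mean number of *Gzma* UMIs per thinned NK-like cell was 10.8 and 8.11 against 7.78 and 8.17, with overlap. Thinning left out 21 of 84 and 3 of 108 NK-like cells in the rejecting against 1 of 118 and 0 of 125 in the tolerized kidneys. *Fasl* was at 351 and 285 against 245 and 257 CPM and *Gzmb* at 1075 and 1043 against 931 and 993 CPM, both below the rejecting kidneys as 18.2% of all genes were. *Nkg7* was at 3139 and 2969 against 3224 and 3236 CPM, above both as in 18.7%. *Prf1* (1488 and 1027 against 1086 and 1085 CPM) and *Ifng* (397 and 128 against 240 and 195 CPM) overlapped. The log2 fold changes ran from -0.32 to 0.08 and were negative in 5 of 6 members, against 48.4% of all genes, with edgeR adjusted p from 0.895 to 0.978, and macrophage markers summed to 802 and 418 raw CPM in NK-like cells of the rejecting and 61.7 and 39.9 CPM in those of the tolerized kidneys.

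The change in *Gzma* differed past the edgeR FDR between CD8 T-like cells and NK-like or CD4 T-like cells, on few *Gzma*-rich cells. In CD8 T-like cells the 10 richest cells of a kidney held 46.8% to 86.4% of its UMIs. The differences were not tested without those cells, and the change within CD8 T-like cells alone did not pass. The log2 change in NK-like cells was below that in CD8 T-like cells by -1.68 (SE 0.341, edgeR adjusted p 0.0374), so that 1 of 7 members passed against 0.0705% of 7091 genes, and none passed in the positive direction, against 0.0141%. It passed in 14 of the 16 settings, and not with doublets kept (adjusted p 0.299) or without cycling cells (0.0561). The change in CD4 T-like cells was below that in CD8 T-like cells by -4.23 (SE 0.676, edgeR adjusted p 0.00202), again the only member, against 0.0282% of genes. This second difference rested on rejecting kidney 1, whose CD4 T-like cells had 64 *Gzma* UMIs, 53 of them in 1 cell, against 2 to 9 in the other transplanted kidneys. Without that kidney it was -1.04 (edgeR adjusted p 1), and without the T-like cells of the NK cluster -2.48 (0.47). Between regulatory and CD8 T-like cells no member passed (0% of genes by edgeR, with 399 genes at an unadjusted p under 0.05). *Gzmk* alone among the members had an unadjusted p under 0.05 in this edgeR test (0.00408), on at most 4 UMIs per kidney of regulatory T-like cells.

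Summed over all kept cells of a kidney, in which fewer cells of a type and less RNA per cell cannot be told apart, 6 of the 7 members had lower values in both tolerized kidneys and *Gzma* did not. *Gzmb* was at 103 and 187 CPM after TMM in the rejecting and at 57.0 and 29.4 CPM in the tolerized kidneys (log2 -1.75, SE 0.429, edgeR adjusted p 0.206). *Nkg7* was at 424 and 457 against 249 and 146 CPM (log2 -1.16), and *Ifng* at 68.7 and 46.7 against 30.9 and 17.6 CPM (log2 -1.25). *Prf1* was at 29.9 and 29.6 against 18.9 and 13.5 CPM (log2 -0.88), *Fasl* at 18.3 and 28.6 against 13.8 and 7.33 CPM (log2 -1.15), and *Gzmk* at 7.79 and 12.0 against 6.87 and 1.90 CPM (log2 -1.17). In these 6 members both tolerized kidneys lay below both rejecting kidneys, as in 29.5% of all genes, and in none did both lie above, as in 31% of all genes. No gene of 16212 passed the edgeR FDR (0%), with 3419 genes and 5 members at an unadjusted p under 0.05. DESeq2 called 1177 genes, among them *Gzmb* (adjusted p 0.00349), *Nkg7* (0.0163), *Ifng* (0.0204), and *Prf1* (0.0442). In edgeR fits that left out 1 kidney, these members stayed below 0. The log2 ran from -2.32 to -1.26 for *Gzmb*, -2.39 to -0.53 for *Gzmk*, and -1.72 to -0.90 for *Ifng*. It ran from -1.60 to -0.83 for *Nkg7*, -1.69 to -0.77 for *Fasl*, and -1.15 to -0.66 for *Prf1*.

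*Gzma* over all kept cells was at 92.7 and 99.2 CPM after TMM in the rejecting and at 93.5 and 98.2 CPM in the tolerized kidneys, with overlap (log2 0.00, SE 0.199, edgeR adjusted p 0.999). T and NK cells made up 33.9% and 35.8% of the kept cells in the rejecting and 19.95% and 16.3% in the tolerized kidneys. NK-like cells held 36.4% and 56.5% of the *Gzma* UMIs in the rejecting and 55.5% and 68.5% in the tolerized kidneys, and CD8 T-like cells held 25.7% and 23.7% against 40.6% and 20.02%. For *Gzmb* and *Nkg7*, CD8 T-like cells were the main source, with 75.9% and 87.2% against 75.2% and 52.4% of the *Gzmb* UMIs and 74.2% and 85.0% against 81.1% and 68.8% of the *Nkg7* UMIs.

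*Prf1* and *Ifng* drew on further classes. *Prf1* UMIs came from CD8 T-like cells in 62.3% and 70.1% of cases in the rejecting and 67.3% and 38.5% in the tolerized kidneys, and from NK-like cells in 13.3% and 19.2% against 28.9% and 51.0%. CD4 T-like cells gave 9.47% and 14.3% of *Ifng* UMIs in the rejecting and 11.7% and 21.2% in the tolerized kidneys, and at most 11.2% of the UMIs of any other member in a transplanted kidney. Regulatory T-like cells gave at most 6.50%, for *Gzmb* in tolerized kidney 1. Proximal tubule-like cells held 3.67% of member UMIs in rejecting kidney 1 and 0.180% to 0.658% in the other transplanted kidneys.

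**Figure D4:**
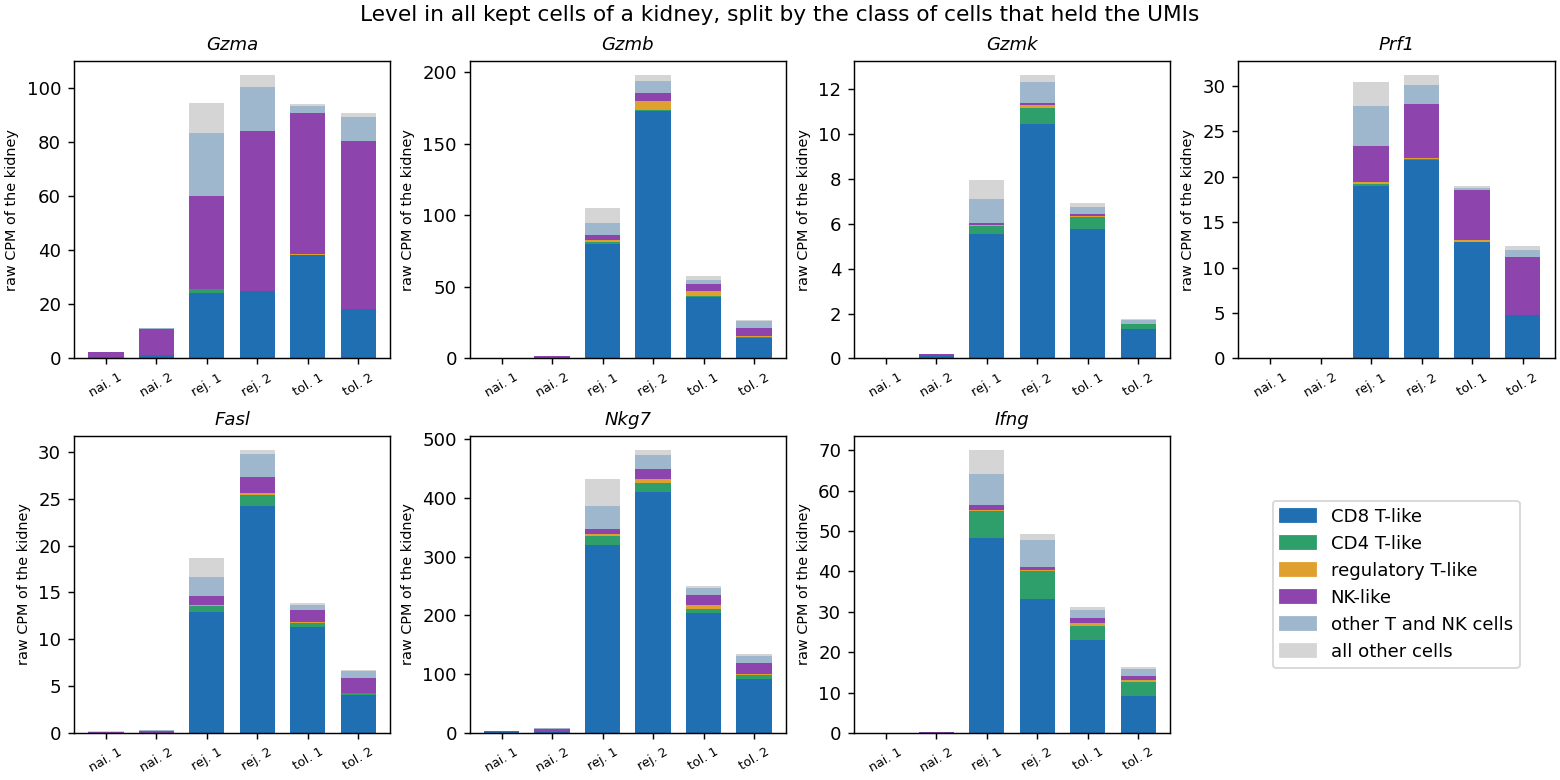
Raw CPM of each member over all kept cells of the 6 kidneys (nai., naive; rej., rejecting; tol., tolerized), with each bar divided by the class of cells that held the UMIs. CD8 T-like cells make up most of each bar in the transplanted kidneys except for *Gzma*, for which NK-like cells hold the largest part, and for *Prf1* in tolerized kidney 2.

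Among T and NK cells, CD8 T-like cells made up 60.8% and 65.9% in the rejecting and 58.7% and 41.2% in the tolerized kidneys, whereas NK-like cells made up 2.37% and 4.01% against 6.59% and 12.0% and regulatory T-like cells 3.44% and 4.83% against 13.2% and 10.9%. CD4 T-like cells made up 6.93% and 7.88% against 8.55% and 12.3%. With classes as gated, the groups did not overlap in any of the 4 classes. The gates ask for 1 marker UMI in unthinned cells. T and NK cells had medians of 1314 and 2687 UMIs in the rejecting and 4533 and 4742 UMIs in the tolerized kidneys. The part of depth in the class shares was not tested. Each exact permutation test (two-sided, n = 2 per group) of these shares gave p = 0.33, the smallest this design allows. With classes from sub-clusters the CD4 share turned to -0.733 percentage points, tolerized minus rejecting. The regulatory T-like share was then 7.91% (SD 2.22) in the rejecting and 10.45% (SD 11.9) in the tolerized kidneys, with overlap. The CD8 share then overlapped too, as it did with at least 2 marker UMIs (permutation test p = 0.667 in each). Without the low-UMI cluster the CD4 share overlapped (permutation test p = 0.667). After thinning, at least 1 member was found in 90.1% and 91.7% of CD8 T-like cells in the rejecting and 90.0% and 85.5% in the tolerized kidneys, and at least 3 members in 17.5% and 15.8% against 13.9% and 9.86%. In NK-like cells at least 3 members were found in 65.1% and 59.1% against 60.7% and 56.0%.

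Other genes of the pathway were taken from 6 lists with 51 genes, chosen with earlier results of these data known. In CD8 T-like cells 47 of them were tested and none passed the edgeR FDR, with 11 at an unadjusted p under 0.05, where 783 of all 10773 genes were, and 0 called by DESeq2. Of 4 other granzymes tested, *Gzmd* had 0 UMIs in both rejecting kidneys and 57 in the tolerized kidneys together, at least 25.03-fold higher against a floor of 3 counts over the group, but 49 of them came from 1 cell. *Gzmf* was at 0.528 and 3.75 against 12.1 and 9.93 CPM after TMM (log2 2.35, edgeR adjusted p 0.457), also on few cells. In rejecting kidney 2, 22 of its 23 UMIs came from 1 cell. In the tolerized kidneys 53 of 66 came from 7 cells and 23 of 26 from 2 cells. How well the counting told reads of these related granzymes apart was not tested.

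Among genes of granule formation and release, 12 were tested in CD8 T-like cells, with 5 positive and 7 negative log2 fold changes (median -0.08, against 0.01 over all genes). *Lyst*, a regulator of lysosome-related granules, was at 165 and 126 CPM against 98.4 and 72.9 CPM (log2 -0.76, edgeR adjusted p 0.572), and *Unc13d*, which primes granules for fusion, at 26.6 and 25.6 against 20.2 and 20.2 CPM (log2 -0.37; 0.752). Of 3 granzyme inhibitors, *Serpina3g* was at 92.3 and 111 against 202 and 115 CPM (log2 0.65, edgeR adjusted p 0.687) and *Serpinb6b* had a log2 of 0.33 (0.868). The median of these 3 was 0.33.

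Regulators of cytotoxic genes had a median log2 fold change of 0.00 over 12 genes in CD8 T-like cells, with 6 positive. *Id2*, a transcriptional regulator of effector T cells, was at 221 and 431 against 570 and 584 CPM (log2 0.82, edgeR adjusted p 0.638), and *Il18r1*, a receptor for interleukin 18, at 101 and 98.3 against 65.3 and 59.2 CPM (log2 -0.67; 0.563). Of 7 death ligands and chemokines (median 0.20), *Tnf* was at 39.96 and 19.2 against 15.6 and 15.3 CPM (log2 -0.93, edgeR adjusted p 0.607) and *Xcl1*, a chemokine for cross-presenting dendritic cells, at 453 and 406 against 514 and 1108 CPM (log2 0.92; 0.619). Of 9 receptors and effectors of target cells (median -0.11), *Igf2r* was at 116 and 68.8 against 52.8 and 36.3 CPM (log2 -1.04, edgeR adjusted p 0.556), and *Ifngr1*, a chain of the interferon gamma receptor, had a log2 of -0.65 (0.694).

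No gene of these lists passed the edgeR FDR in CD4 T-like (37 tested, 4 at an unadjusted p under 0.05, where 613 of all 6773 genes were), regulatory T-like (35 and 4, where 369 of 5693 were), or NK-like cells (37 and 1, where 265 of 4482 were), and DESeq2 called 0 in each. Over all kept cells, edgeR called 0 of 47, with 15 at an unadjusted p under 0.05, where 3419 of all 16212 genes were. DESeq2 called 8 of them and 1177 of all genes, the 8 being *Cst7*, *Ctsc*, *Gzmc*, *Il18r1*, *Il2rb*, *Lta*, *Lyst*, and *Tbx21*, each lower in the tolerized kidneys. *Tbx21* encodes T-bet, an activator of *Ifng* and of granzyme and perforin genes, *Ctsc* encodes the protease that activates granzymes, and *Il2rb* encodes a receptor chain for interleukins 2 and 15.

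The genes most like each member over the 16 sums of classes and kidneys were found among 5567 genes with a mean of at least 20 CPM, by Pearson's r of log2 CPM, given as a description because sums of a kidney share its library. *Gzma* was most like *Klra3* (r = 0.985) and *Fcer1g* (0.983), genes of an NK cell receptor and of a receptor signaling chain. *Prf1* was most like *Tm6sf1* (0.980) and *Gzma* (0.970), and *Fasl* most like *Klrd1* (0.972) and *Sema4a* (0.969). *Nkg7* was most like *Chsy1* (0.975) and *Bcl2* (0.973), *Gzmb* most like *Selplg* (0.922) and *Ptp4a3* (0.915), *Gzmk* most like *Ccdc50* (0.831) and *Rpa2* (0.823), and *Ifng* most like *Ccdc50* (0.922) and *Itgb1* (0.921).

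Spliced length moved with the comparison of groups. In CD8 T-like cells the median log2 fold change was 0.22 in the shortest 20% of genes and -0.18 in the longest 20%, and in NK-like cells it was 0.21 and -0.17. *Gzma* (996 bases), *Gzmb* (1436), *Gzmk* (1304), *Nkg7* (881), and *Ifng* (1208) were among the shortest 20% in CD8 T-like cells. The part of length in the members' values was not tested.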

How the data were processed

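Single-cell RNA sequencing (10x) was available for 6 mouse kidneys. Per the labels, the authors aligned and counted reads with CellRanger (3.0.1 in the file headers of the transplanted kidneys), and the deposited values are raw UMI counts per gene and barcode. The authors describe doublet removal with DoubletDecon for their own objects, not for the deposited matrices. Barcodes were kept from 500 UMIs and 250 genes upward unless mitochondrial UMIs exceeded 50%, and those with the highest Scrublet scores (0.8% per 1000 barcodes) were left out, because the caller's own threshold marked 438 of 49797. This left 45667 cells. Clusters (scanpy 1.11.5; 2500 variable genes without the pathway genes, 40 components, 20 neighbors, Leiden resolution 1.5) gave 46 clusters, 7 of T and NK cells. Total UMIs per library were 34874702 to 96803926, and intervals and floors cover counting error only.

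Counts were summed per kidney and class and tested with edgeR 4.0.16 (quasi-likelihood, TMM, Benjamini-Hochberg, FDR under 0.05, no block in the comparison of 2 rejecting with 2 tolerized kidneys); DESeq2 1.42.0 was an alternative. Tests were checked on simulated data. Alternatives were depth, mitochondrial, doublet, gate, resolution, and low-count settings, each kidney left out, and a replicate block. The members, lists, and tests were chosen with earlier results of these data known. All members were named, and 2 of each other list, by absolute log2 fold change in CD8 T-like cells, and the 2 genes most correlated with each member.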

Additional observations from a re-analysis of the deposited data

Results flagged for a closer look

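The change of *Gzma* between tolerized and rejecting kidneys differed between classes of cells in a test of the difference itself. In NK-like cells the log2 change was lower than in CD8 T-like cells by -1.68 (SE 0.341; edgeR adjusted p 0.0374), with values from -2.08 to -1.48 over the 16 settings. It passed in 14 of them, but not with doublets kept (edgeR adjusted p 0.299) or without cycling cells. In CD8 T-like cells, the richest 10 cells of a kidney held 46.8% to 86.4% of the *Gzma* UMIs, and the difference was not tested without them. *Gzma* was at 12690 and 10130 CPM in NK-like cells of the rejecting and 10350 and 10630 CPM in those of the tolerized kidneys, while in CD8 T-like cells it was at 202 and 168 CPM against 575 and 531 CPM.

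In CD4 T-like cells the log2 change of *Gzma* was lower than in CD8 T-like cells by -4.23 (SE 0.676; edgeR adjusted p 0.00202). The CD4 T-like cells held 64 and 3 *Gzma* UMIs in the rejecting and 9 and 2 in the tolerized kidneys, and 53 of the 64 came from 1 cell. Without rejecting kidney 1 the difference was -1.04 (edgeR adjusted p 1).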

How the results depend on the processing

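With 2 kidneys per group, each fit that left out 1 kidney took the lone kidney to vary like the others. Of the alternatives run on members between groups, 383 kept direction and side of the threshold, 17 newly passed, and 33 reversed; for comparisons of classes these counts were 568, 14, and 40, with 8 no longer passing. The cause of these changes was not tested. The replicate number marks no shared animal or day in the labels, and same-numbered kidneys did not deviate together (r of -0.109 in CD8 T-like, -0.0499 in CD4 T-like, -0.00587 in regulatory T-like, and -0.0345 in NK-like cells). With the replicate block edgeR called 6 genes in CD8 T-like, 27 in CD4 T-like, 19 in regulatory T-like, and 5 in NK-like cells, and the log2 of *Ifng* in CD8 T-like cells was 0.020. The crossed block, added after seeing the data as were the settings without low-UMI, cycling, or NK-cluster cells, called 147 genes in CD8 T-like cells.

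Genes called in CD8 T-like, CD4 T-like, regulatory T-like, and all kept cells were 37, 24, 13, and 1177 with DESeq2. Without a filter on low counts they were 128 in CD4 T-like, 100 in regulatory T-like, 32 in NK-like, and 88 in all kept cells. The count in CD4 T-like cells was 0 with at least 1000 UMIs or 2 marker UMIs, 7 with at most 20% mitochondrial UMIs, 5 with sub-clusters, 17 with doublets kept, 10 without cycling cells, and 4 without the low-UMI cluster. In NK-like cells it was 19 with at most 20% mitochondrial UMIs, 1 with sub-clusters, and 7 with doublets kept, which gave 3 in regulatory T-like cells. With sub-clusters 1182 genes differed between regulatory and CD4 T-like cells and the CD4 share differed by -0.733 points. For the difference of changes between CD4 and CD8 T-like cells the count was 1 with 2 marker UMIs, 0 with sub-clusters, 16 without a filter, 1 without T-like cells of the NK cluster, and 4 without cycling cells; for NK-like against CD8 T-like cells it was 9 with 2 marker UMIs, 3 with sub-clusters, 2 with doublets kept, 9 without a filter, and 8 at resolution 0.8 or without the low-UMI cluster; for regulatory T-like cells it was 2 without a filter.

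Left-out kidneys gave 75 to 303 called genes in CD8 T-like, 0 to 266 in CD4 T-like, 21 to 139 in regulatory T-like, 5 to 47 in NK-like, and 0 to 1016 in all kept cells, and 2 to 17, 0 to 52, and 5 to 16 for the differences of changes in CD4 T-like, regulatory T-like, and NK-like cells. The log2 between groups then ran in CD8 T-like cells from -0.63 to 0.56 for *Gzmk*, -0.17 to 0.33 for *Prf1*, -0.24 to 0.44 for *Fasl*, -0.044 to 0.17 for *Nkg7*, and -0.38 to 0.45 for *Ifng*. It ran from -0.69 to 0.78 for *Gzmk* in CD4 T-like cells, from -1.61 to 0.15 for *Gzmb* and -0.48 to 0.12 for *Nkg7* in regulatory T-like cells, from -0.27 to 0.049 for *Gzma*, -0.45 to 0.079 for *Prf1*, and -0.87 to 0.76 for *Ifng* in NK-like cells, and from -0.049 to 0.046 for *Gzma* in all kept cells. *Nkg7* in NK-like minus CD8 T-like cells ran from -0.029 to 0.027. Differences of changes from CD8 T-like cells ran from -0.83 to 0.89 for *Gzmb*, -0.12 to 0.36 for *Gzmk*, and -0.70 to 0.15 for *Ifng* in CD4 T-like cells, from -0.47 to 0.53 for *Gzmb* and -0.60 to 0.050 for *Nkg7* in regulatory T-like cells, and from -0.076 to 0.065 for *Nkg7* and -0.39 to 0.25 for *Ifng* in NK-like cells.

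Directions that turned in other settings were these. For *Nkg7* in NK-like minus CD8 T-like cells the log2 was 0.015 with DESeq2 size factors, 0.025 with at most 20% mitochondrial UMIs, 0.0030 with 1000 UMIs, 0.012 with 2 marker UMIs, 0.27 with sub-clusters, and 0.033 without the low-UMI cluster, and its change in NK-like minus CD8 T-like cells was -0.021 with DESeq2 size factors, -0.024 with 2 marker UMIs, -0.025 with doublets kept, -0.058 with at most 20% mitochondrial UMIs, and -0.038 without the low-UMI cluster. *Gzma* in all kept cells was at 0.13 with 1000 UMIs, 0.50 with at most 20% mitochondrial UMIs, and 0.022 without a filter. *Ifng* in CD8 T-like cells was at 0.16 with at most 20% mitochondrial UMIs and 0.13 without the low-UMI cluster. With 2 marker UMIs the log2 in CD4 T-like cells was 0.45 for *Gzmb* and -0.93 for *Gzmk*, *Gzma* in regulatory minus CD4 T-like cells 0.52, and the *Gzmk* change in CD4 minus CD8 T-like cells -1.13; the last was -0.060 with at most 20% mitochondrial UMIs and -0.062 with doublets kept. The *Gzmb* change in CD4 minus CD8 T-like cells was -0.12 with doublets kept, -0.75 without cycling cells, and -0.17 without the low-UMI cluster, and without cycling cells the *Gzmb* change was 0.20 in regulatory and the *Ifng* change 0.11 in NK-like minus CD8 T-like cells.

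With sub-clusters the log2 was -0.016 for *Gzmk*, -0.061 for *Prf1*, -0.10 for *Fasl*, and -0.10 for *Nkg7* in CD8 T-like, -0.12 for *Gzmk* and 0.052 for *Ifng* in CD4 T-like, and 0.16 for *Nkg7* and -0.65 for *Ifng* in regulatory T-like cells. *Gzma* in regulatory minus CD4 T-like cells was 1.42, the CD4 minus CD8 T-like changes were -0.20 for *Gzmb*, -0.25 for *Gzmk*, and 0.18 for *Ifng*, and the regulatory minus CD8 T-like changes were 0.39 for *Gzma*, 0.54 for *Gzmb*, 0.20 for *Nkg7*, and -0.55 for *Ifng*.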
